A study of Rattus norvegicus with 4 samples.

Results

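Amacrine and horizontal cells are the inhibitory interneurons of the retina, and 9 genes that mark their transmitter types or their calcium-binding proteins are described here: Gad1, Gad2, Slc32a1, Slc6a9, Chat, Slc18a3, Th, Calb1 and Calb2. They were chosen by symbol, with earlier results of these data known. All 9 had a value in both tissues, out of 14485 gene names with values, and none was dropped. RNA sequencing had been applied to ocular tissue of Long Evans rats, a pigmented strain, of wild-type genotype. Eye and retina were sampled, each with 2 technical replicates per the labels, and a library held the pooled RNA of 5 rats. The sources used here do not give the rats' age, sex or any treatment. For each tissue 1 column of values was analysed, called its library here, so the differences carry no replicate error and no p-value. Titles and tissue labels name eye or retina, but the 4 descriptions all speak of retina mRNA, and the tissue label is used as the name of a library.

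Horizontal cells lie in the outer retina and feed back onto photoreceptor terminals, and amacrine cells lie in the inner retina and shape the signal that bipolar cells pass to ganglion cells. Most amacrine cells release either GABA, made from glutamate by the decarboxylases GAD67 and GAD65, or glycine, which they gather with the transporter GlyT1. Both transmitters are loaded into vesicles by the same transporter, VGAT. Small subsets also release acetylcholine (the starburst cells) or dopamine, and many amacrine and horizontal cells carry the calcium buffers calbindin or calretinin.

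Values are RPKM (reads scaled by gene length and library size), a unit inferred from the numbers. The eye library had 28071917 reads and the retina library 51944762, as worked out from the values, and whole reads could be recovered for all 9 genes. The 95% intervals below are exact intervals of those reads, cover counting error only and compare the libraries, not the tissues. Calls needed a 2-fold difference or more after adding 0.1 to each value, and were made among the 13259 genes that reached 1 in the higher library. The eye library also held other tissues: summed values of 11 lens markers were 156361 in eye and 672 in retina, those of 7 skeletal muscle markers 3101 and 12.4, and those of 7 corneal epithelium markers 5010 and 143, with no marker of these lists at 0 in either library. In bulk tissue, fewer cells of a type and less RNA per cell cannot be told apart.

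Of the 9 genes, 4 were called lower in the eye library (Slc32a1, Slc18a3, Chat and Slc6a9) and 0 higher. Over all genes tested, 7.95% were called lower and 17.8% higher. The median log2 fold of the 9 was -0.85, against -0.01 for all genes tested. The members ran from -1.40 for Slc32a1 to 0.00 for Calb1. Promoter sequences from RefSeq (build GRCr8) matched 7 of the 9 genes. Those of the 4 called genes are printed to show the stretches from which the called genes start, with that of Th as the transmitter gene that differed least. Each line gives the 250 bases before the gene's start, 5′ to 3′ on the gene's strand. Capitals mark matches on either strand to TATAAA, the TATA box, TGACGTCA, the full cAMP response element, GGGCGG, a GC box (CCGCCC on the other strand), or CAGCTG, an E-box. No matches overlapped.
Slc32a1 (GRCr8 chr3:167686995-167687244, plus strand): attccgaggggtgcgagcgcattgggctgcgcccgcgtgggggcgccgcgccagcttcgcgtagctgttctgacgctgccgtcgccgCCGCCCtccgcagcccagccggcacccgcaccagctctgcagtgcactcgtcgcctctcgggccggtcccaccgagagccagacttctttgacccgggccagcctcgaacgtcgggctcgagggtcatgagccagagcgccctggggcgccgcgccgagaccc
Slc6a9 (GRCr8 chr5:136659826-136660075, plus strand): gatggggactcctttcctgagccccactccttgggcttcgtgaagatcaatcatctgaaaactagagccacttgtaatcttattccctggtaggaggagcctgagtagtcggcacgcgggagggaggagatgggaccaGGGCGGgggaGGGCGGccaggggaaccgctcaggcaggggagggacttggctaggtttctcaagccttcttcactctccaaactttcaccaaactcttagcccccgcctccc
Chat (GRCr8 chr16:7723417-7723666, minus strand): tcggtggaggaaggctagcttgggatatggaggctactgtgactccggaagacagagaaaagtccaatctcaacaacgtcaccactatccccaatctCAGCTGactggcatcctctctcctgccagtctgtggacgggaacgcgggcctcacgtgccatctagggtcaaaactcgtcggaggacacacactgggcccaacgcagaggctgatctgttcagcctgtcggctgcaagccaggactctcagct
Slc18a3 (GRCr8 chr16:7722815-7723064, minus strand): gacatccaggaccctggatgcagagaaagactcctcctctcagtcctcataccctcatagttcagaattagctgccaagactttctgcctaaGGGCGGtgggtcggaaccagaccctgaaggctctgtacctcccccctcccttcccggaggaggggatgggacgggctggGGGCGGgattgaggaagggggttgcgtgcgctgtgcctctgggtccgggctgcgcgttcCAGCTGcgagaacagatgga
Th (GRCr8 chr1:207508219-207508468, minus strand): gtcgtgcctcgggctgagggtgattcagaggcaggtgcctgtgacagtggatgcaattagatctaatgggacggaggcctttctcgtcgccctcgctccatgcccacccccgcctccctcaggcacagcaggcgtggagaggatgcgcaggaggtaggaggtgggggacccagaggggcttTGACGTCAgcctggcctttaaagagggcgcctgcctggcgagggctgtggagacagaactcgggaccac

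These promoters shared no single motif. The GC box stood in those of Slc32a1 (1 match), Slc6a9 (2) and Slc18a3 (2). It also stood in that of Gad1 (1 match), which was not called, and in 30.5% of 33469 promoters of the table. CAGCTG stood in those of Chat and Slc18a3, and in 11.97% of all. Of the 7 members with a promoter, only Th held TGACGTCA, 69 bases before its start, and 1.59% of all promoters did. Only Gad1 held TATAAA, which 12.9% of all promoters did, and Gad2 held none of the 4. These matches describe the letters of the window and are not shown to be sites. Chat and Slc18a3 form the cholinergic locus, in which the gene of the vesicular transporter lies inside the span of the gene of the enzyme. In GRCr8 both run on the minus strand, and their starts lie 602 bases apart. The sources used here do not say how reads shared by overlapping genes were counted.

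**Figure D1:**
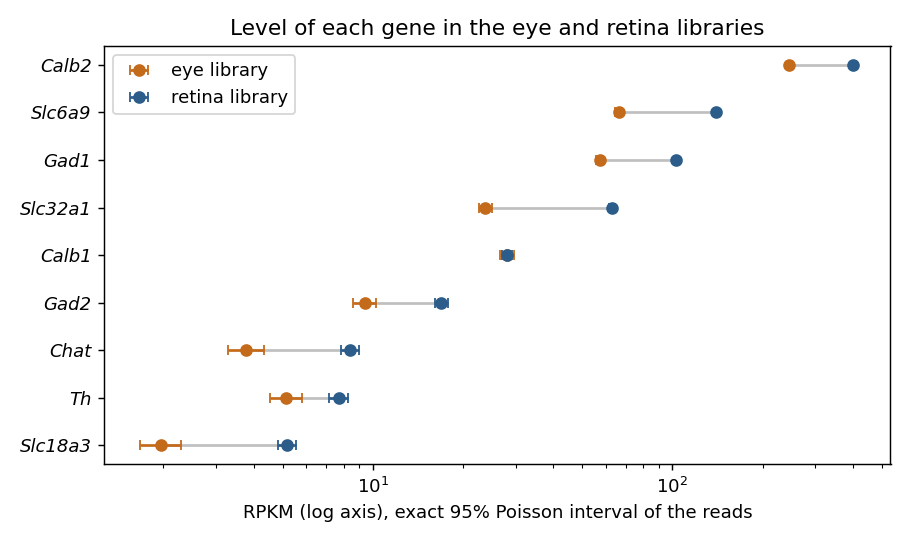
RPKM of the 9 genes (log axis) in the eye library (orange) and the retina library (blue), 1 point per library, with exact 95% Poisson intervals of the reads. Calb2 was the highest in both libraries and Slc18a3 the lowest, and the points of Calb1 lie on each other.

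The genes of GABA synthesis were lower in the eye library by almost the same fold, neither reaching the threshold. Gad1 encodes GAD67, the decarboxylase that makes most of a neuron's GABA. It was at 57.2 in eye (interval 55.6 to 58.7) and 103 in retina (101 to 104), from 5131 and 17078 reads, 1.80-fold lower in eye (1.74 to 1.86). Gad2 encodes GAD65, the form anchored at nerve terminals. It was at 9.40 in eye (8.60 to 10.3) and 17.0 in retina (16.2 to 17.8), 1.80-fold lower (1.63 to 2.00). Both had the other sign, at log2 0.17, when values were scaled to put the median of rod markers at 0. Gad1 thus stood 6.08 times as high as Gad2 in eye (5.55 to 6.68) and 6.06 times in retina (5.76 to 6.38), and these intervals overlap.

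Slc32a1 encodes VGAT, the transporter that fills vesicles with GABA or glycine in horizontal and amacrine cells alike. Its log2 difference was the largest of the 9, with an interval that overlaps that of Slc18a3. Its value was 23.7 in eye (22.6 to 24.9) and 62.7 in retina (61.3 to 64.1), from 1589 and 7768 reads, 2.64-fold lower in eye (2.50 to 2.79). Of the genes tested, 1.56% had a lower log2 fold. The vesicular transporter and the synthesis genes therefore did not keep 1 ratio: Gad1 was 2.41 times Slc32a1 in eye (2.28 to 2.55) and 1.64 times in retina (1.60 to 1.68), and the intervals do not overlap.

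Slc6a9 encodes GlyT1, which takes up glycine in glycinergic amacrine cells and, in many regions of the nervous system, in glia. It was at 66.2 in eye (64.6 to 67.9) and 140 in retina (138 to 142), the second highest of the 9 in each library, and 2.11-fold lower in eye (2.05 to 2.17). Without lens markers in the totals it was not called (log2 -0.91). Its ratio to Slc32a1 was 2.79 in eye (2.64 to 2.95) and 2.23 in retina (2.17 to 2.29). In GRCr8 its span overlaps that of Ccdc24, a gene with no value analysed here.

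The cholinergic pair lay near the bottom of the 9. Chat encodes choline acetyltransferase, the enzyme that makes acetylcholine, which starburst amacrine cells express in the retina. It was at 3.79 in eye (3.29 to 4.34) and 8.42 in retina (7.86 to 8.997), from 210 and 863 reads, 2.22-fold lower in eye. Its interval, 1.91 to 2.59, reaches below the threshold of 2, and it was not called without lens markers in the totals (log2 -0.97) or with 1 added to each value. Slc18a3 encodes VAChT, which loads acetylcholine into vesicles. It was the lowest member, at 1.97 in eye (1.67 to 2.30) and 5.17 in retina (4.81 to 5.55), from 158 and 769 reads, and 2.63-fold lower in eye (2.21 to 3.14). Chat was 1.93 times Slc18a3 in eye (1.56 to 2.38) and 1.63 times in retina (1.47 to 1.80), and at this depth the ratios could not be told apart. The model length found for Slc18a3, 2862 bases, equals its whole span in the GRCr8 table.

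Th encodes tyrosine hydroxylase, the first enzyme of dopamine synthesis, found in the retina in a sparse class of amacrine cells and elsewhere in sympathetic nerve fibres, whose cell bodies lie outside the eye. It was at 5.15 in eye (4.54 to 5.83) and 7.71 in retina (7.15 to 8.30), from 255 and 706 reads. It was 1.496-fold lower in eye (1.29 to 1.73), and on the other side, at log2 0.43, with the rod median at 0. Of 4 genes listed as noradrenaline markers 2 had values. Slc6a2, the noradrenaline transporter, had 0.0809 in eye and is listed at 0 in retina. Slc18a1, a vesicular monoamine transporter not particular to noradrenaline, was at 0.802 and 1.64. The part of sympathetic fibres in the value of Th was not tested. Chat was 1.09 times Th in retina (0.987 to 1.21), an interval that spans 1, and 0.736 times Th in eye (0.610 to 0.886).

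The calcium-binding genes were apart from each other. Calb2 encodes calretinin, carried by several amacrine types and by some ganglion cells. It was the highest of the 9, at 246 in eye (241 to 250) and 402 in retina (397 to 406), and ranked 160 and 58 among all gene names. It was 1.64-fold lower in eye (1.60 to 1.67), and higher there, at log2 0.31, with the rod median at 0. Calb1 encodes calbindin, a marker of horizontal cells that some amacrine and ganglion cells share. It was at 28.1 in eye (26.6 to 29.6) and 28.0 in retina (26.9 to 29.1), from 1344 and 2483 reads. The ratio of eye to retina was 1.00 (0.937 to 1.07), which counting alone keeps apart from the ratios of the other 8, the nearest being Th at 0.668 (0.577 to 0.772). Its log2 difference was -0.64 with equal summed values and 1.02, a call for eye, with the rod median at 0.

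**Figure D2:**
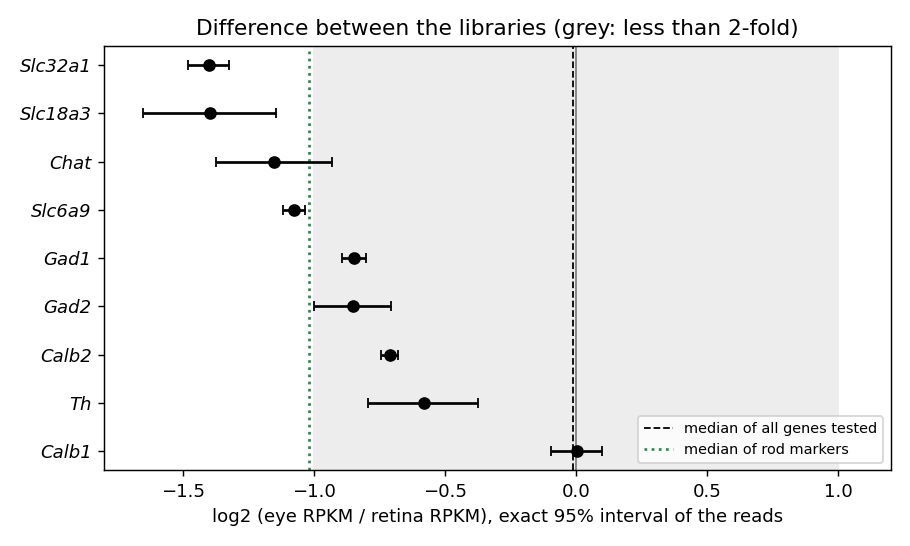
Log2 ratio of eye to retina RPKM for each of the 9 genes, with exact 95% intervals of the reads, on a linear axis. The grey band spans less than 2-fold, the dashed line is the median of all genes tested and the dotted line that of 10 tested rod markers. The points of the 4 called genes lie left of the band, and only Calb1 lies at 0.

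The order of the levels was close to the same in both libraries. In retina it ran Calb2, Slc6a9, Gad1, Slc32a1, Calb1, Gad2, Chat, Th and Slc18a3. In eye Calb1 stood above Slc32a1 and Th above Chat, and the others kept their places. Intervals of neighbours overlapped for Chat and Th in retina and for no other neighbours in either library. Calb2 made up 55.7% of the summed value of the 9 in eye and 52.0% in retina, and the share of Calb1 was 6.36% and 3.62%. That of Slc32a1 was 5.38% and 8.11%. The sum of all 9 was 441 in eye and 773 in retina, 0.0843% and 0.231% of the summed value of all genes. Calb2 was 8.75 times Calb1 in eye (8.26 to 9.27) and 14.3 times in retina (13.8 to 14.9).

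**Figure D3:**
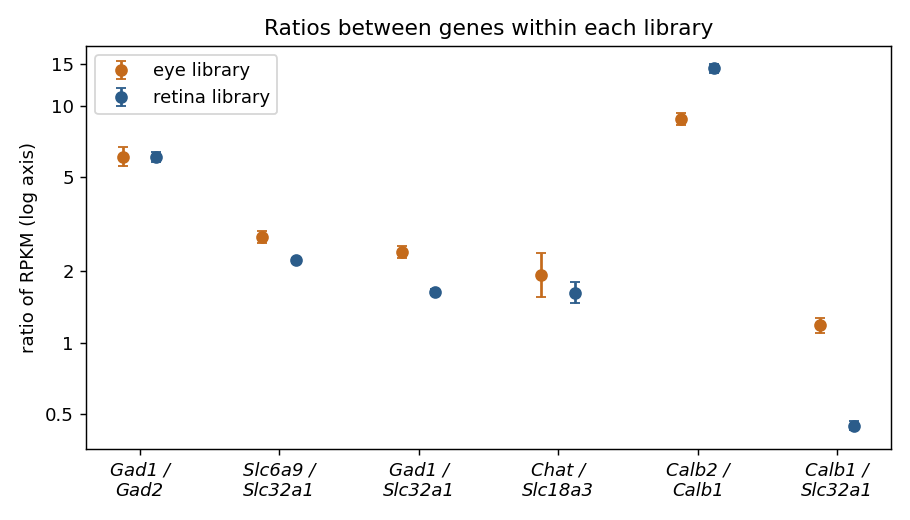
Ratios of RPKM between 6 pairs of the 9 genes within the eye library (orange) and the retina library (blue), on a log axis, with exact 95% intervals of the reads. The ratios Gad1 to Gad2 and Chat to Slc18a3 have overlapping intervals, and the other 4 pairs plotted do not.

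Other genes that handle these transmitters are given by list, and their counts stand beside shares over all genes of 17.8% higher and 7.95% lower. The 5 tested genes of GABA uptake and breakdown had a median log2 fold of -0.55 (0.46 with the rod median at 0). Slc6a11, a GABA transporter, was at 42.1 and 59.1. Of 6 tested glycine genes 1 was higher, Shmt1, a serine hydroxymethyltransferase (3.48 and 0.282, 12.3-fold, interval 7.13 to 22.9), and the median was 0.00. Shmt2, its mitochondrial form, was at 35.9 and 31.9, and Amt, of the glycine cleavage system, at 19.6 and 20.9. Slc6a5, the neuronal transporter GlyT2, was at 0.0217 in eye and 0.0323 in retina, from 4 and 11 reads, far under Slc6a9 in both.

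In the cholinergic list, 1 of 5 tested genes was higher and 0 lower, with a median of 0.56. The higher gene was Bche, butyrylcholinesterase (1.10 and 0.400, 2.75-fold, interval 1.80 to 4.24), which was not called with equal summed values (log2 0.69) or with 1 added (0.59). Slc44a1, a choline transporter found in many tissues, was at 17.0 and 11.5, and Prima1, the membrane anchor of acetylcholinesterase, at 5.83 and 8.63. The median of the list thus had the other sign from Chat and Slc18a3, except with equal summed values, where it was -0.07. This sign was not shared by the whole list. With values as deposited, 2 of the 5, Prima1 and Slc5a7, were below 0 like Chat and Slc18a3. Bche, Slc44a1 and Colq (1.25 and 0.659, not called) were above 0. Slc5a7, the high-affinity choline transporter of cholinergic neurons, was at 1.32 in eye and 1.95 in retina, 1.47-fold lower (1.15 to 1.89) and not called.

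Of 9 tested dopamine genes, 2 were higher and 0 lower, with a median of 0.76 (0.12 with equal summed values). Pts, which helps make the cofactor of tyrosine hydroxylase, was 2.38-fold higher in eye (2.01 to 2.82), at 9.81 and 4.12. Maob, a monoamine oxidase, was 2.43-fold higher (2.11 to 2.81), at 6.62 and 2.72. With equal summed values neither was called (log2 0.60 and 0.62). Qdpr, which recycles the cofactor, was at 35.3 and 37.6. Slc18a2, the vesicular monoamine transporter of dopaminergic neurons, was at 2.01 and 1.99, and its interval of the ratio of eye to retina, 0.828 to 1.22, spans 1.

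Among 7 other EF-hand calcium-binding genes 2 were higher, 1 lower and 4 not called, with a median of -0.33 (0.69 with the rod median at 0). Pvalb, parvalbumin, present in AII amacrine cells of the rat and in fast muscle, was at 363 in eye and 60.01 in retina, 6.04-fold higher (5.72 to 6.39). Ocm, oncomodulin, was at 11.1 and 0.0293, with 205 reads in eye and 1 in retina, so the interval of its 379-fold difference ran from 67.3 to 15055. Summed muscle markers (above) moved the same way, and their part was not tested. Caln1, calneuron, was 2.46-fold lower (1.26 to 5.23) from 11 reads in eye and not called with 1 added (log2 -0.79), and Cabp1, caldendrin, was at 75.0 and 148, just short of a call.

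Of 10 amacrine neuropeptide genes 1 was higher and 0 lower, with a median of -0.18 (0.82 with the rod median at 0). Npy, neuropeptide Y, which sympathetic nerves also carry, was at 214 in eye and 25.3 in retina, 8.45-fold higher (7.79 to 9.18). Cartpt, the CART peptide precursor, was at 97.0 and 110. Of 8 tested markers of amacrine and horizontal cells outside the transmitter set, 2 were lower and 0 higher, with a median of -0.58 (0.40 with the rod median at 0). These were transcription factors of horizontal cells, Lhx1 (1.10 and 2.85, 2.58-fold lower, interval 1.95 to 3.48) and Onecut1 (0.936 and 2.47, 2.64-fold lower, 2.00 to 3.53), and neither was called with 1 added (log2 -0.87 and -0.84). Prox1, which horizontal cells express beside Calb1 and which lens also expresses, was at 13.3 in eye and 12.2 in retina. Tfap2b, an amacrine transcription factor found under the older symbol Tcfap2b, was at 19.0 and 31.5.

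**Figure D4:**
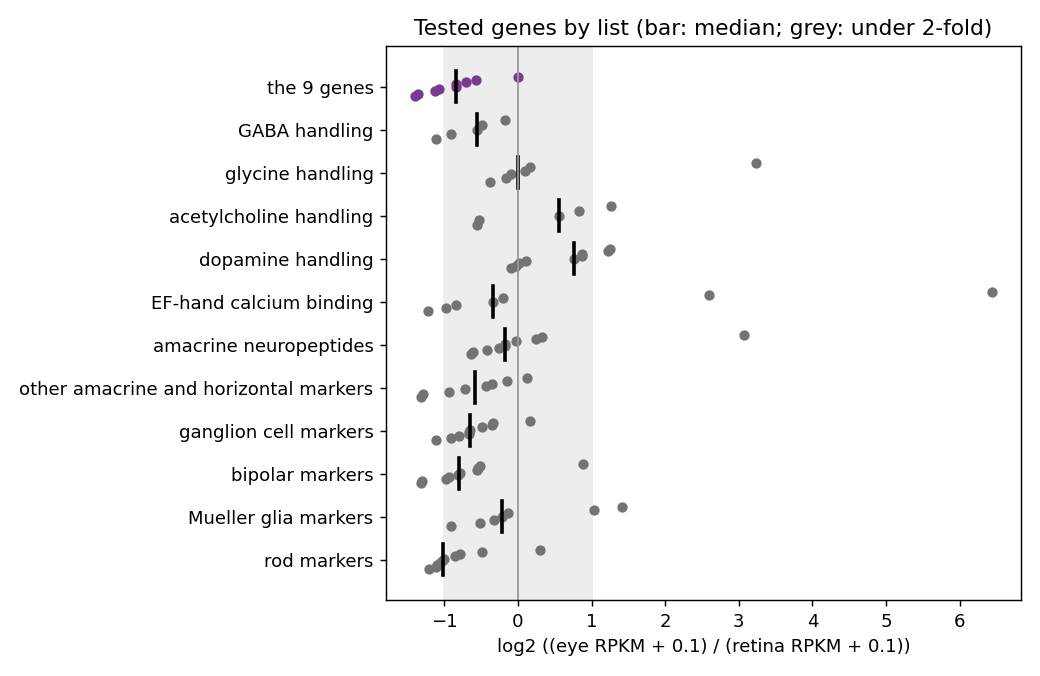
Log2 fold of eye against retina, with 0.1 added to each RPKM, for each tested gene of 12 lists, 1 point per gene, with black bars at the medians and a grey band under 2-fold. The median of the 9 genes, -0.85, lies between those of rod markers (-1.02) and bipolar markers (-0.81).

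The median of the 9 genes sat closer to those of rods, bipolar and ganglion cells than to that of Mueller glia. The median was -1.02 for 10 tested rod markers, of which 6 were lower, or 1 (Cngb1) without lens markers in the totals. It was -0.81 for 10 bipolar markers (2 lower, Grm6 and Nyx) and -0.66 for 10 ganglion cell markers (1 lower, Isl2). For 7 Mueller glia markers it was -0.22 (0 lower and 2 higher, Vim and Gfap). That list ran from -0.91 for Kcnj10 to 1.41 for Vim, with 5 of the 7 below 0, so it overlaps the lists of neurons. The part of other eye tissues in the values of Vim and Gfap was not tested. Of the amacrine lists above, neuropeptides had a median of -0.18 and the markers outside the transmitter set -0.58. Over all genes tested, 7.95% were called lower and 17.8% higher, and 4.66% lower without lens markers in the totals. The count of 1 in 10 ganglion cell markers is near the share of all genes called lower. Isl2 was not called without lens markers in the totals (log2 -0.96) or with 1 added (-0.89). Vim and Gfap were not called with equal summed values (0.77 and 0.40), nor Gfap with 1 added (0.95). Such medians shift nearly alike with the scaling. Gnat1 and Sag led the rod list by level, at 3959 and 1776 in eye and 7967 and 3067 in retina. Slc32a1 lay 0.38 below the rod median on the log2 scale and Slc18a3 0.33 below it, whereas Calb1 lay 1.02 above it. In the 2 libraries, the genes nearest to the median level of the 9 (23.7 in eye and 28.0 in retina) were Sharpin, Tmem218 and Fbxo7, at log2 distances of 0.013 to 0.014. That point takes its eye value from Slc32a1 and its retina value from Calb1, so no member lies at it. Sharpin was at 23.7 in eye and 27.8 in retina, so likeness in level here is not likeness in fold.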

How the data were processed

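RNA sequencing values of 2 tissues, 1 column each, were analysed. Per the submitters' processing notes the authors used GSNAP and HTSeq with genome build rn4. The sources used here do not give versions, settings, annotation or strand use, nor whether a column joins both technical replicates. The deposited values were taken as RPKM, inferred from the values. If they are whole reads over a whole length and a fixed total, 1041 of 2127 genes searched agreed on 1 eye total, and 36 on the next that was no multiple of it. With both totals, 13759 of 13760 genes had whole reads within the rounding of the printed decimals (lengths of 50 to 19999 bases). The smallest reads that fit were used, so for counting error alone the intervals are if anything too wide. This step was checked on simulated data. Since reads carry no molecular identifiers, they need not be separate molecules, and intervals that count them as such could be too narrow.

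Each file had 14533 rows, 7 of them ND. For 41 repeated names the row with most decimals was kept, otherwise the first. The fold was log2((eye + 0.1) / (retina + 0.1)). Printed folds are ratios of the values as deposited. The members and lists were chosen with earlier results of these data known. Named genes were the 9 members, the called genes and the 2 with the highest mean of each transmitter list (the 2 highest of each list for other cell types, of which rods are given), and the 3 genes nearest to the members' median. Slc5a7, Slc6a5, Slc6a2, Slc18a2, Colq and Kcnj10 were added after their values were seen. Not every gene so named is reported here. A planned comparison of proteins was not run, since no protein sequences were used here. Python 3.11.15 with scipy 1.17.1 was used.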

Additional observations from a re-analysis of the deposited data

How the results depend on the processing

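Values as deposited gave 4 lower and 0 higher genes and a median log2 fold of -0.85. Without lens markers in the totals there were 2 lower genes (Slc18a3 and Slc32a1), against 4.66% of all genes, and a median of -0.68. With equal summed values there were 8 lower (all but Calb1), against 31.9% of all genes, and a median of -1.49. With the rod marker median set to 0, an alternative chosen after seeing the data, there were 0 lower and 1 higher (Calb1), against 0.106% and 49.9% of all genes, and a median of 0.17. These scalings moved the log2 ratio by 0.16, -0.64 and 1.02 before 0.1 was added. At a fold of 1.5 there were 7 lower, against 21.9% of all genes, and at a fold of 4 there were 0, against 0.0905%. With 1 added to each value 3 were lower, without Chat, against 4.94% of all genes. Adding 0.01, no minimum, a minimum of 5, a trimmed mean, a median of ratios and recovered reads each gave 4 lower genes and 0 higher. Over all genes these settings gave 7.53% to 8.37% lower and 14.7% to 18.3% higher. All 9 genes passed both minimum settings, so those could not change the counts. Slc32a1, Slc6a9, Chat and Slc18a3 had lower values in eye under all 10 alternatives, of which the 2 minimum settings leave a fold as it was. With the rod median at 0 their log2 folds were only -0.38, -0.06, -0.13 and -0.37. No paired analysis was possible because only 1 column of values per tissue was analysed, and for the same reason no replicate could be left out. Depth limits Chat, Slc18a3 and Th most, with 158 to 255 reads in eye.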
